A study of Mus musculus with 6 samples.

Results

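The genes described here are Scd1 and 9 other genes of fatty acid synthesis, elongation and desaturation: Scd2, Fasn, Acaca, Acly, Elovl6, Srebf1, Fads1, Fads2 and Me1. They were taken as all probes whose platform annotation, or the current symbol of the same Entrez gene, gave one of these names, which found all 10 genes of the 19057 named on the array, on 14 of its 45281 probes. Elovl6, Srebf1, Fads1 and Fads2 had 2 probes each and the other 6 genes had 1. The set was chosen by a measured value, the intensity of Scd1, which was higher on every knockout array, so differences between the genotypes among these genes are given as a description, and nothing is supported by a test of them. Total RNA of the lining of the acid-secreting fundus of the stomach was measured on 6 Illumina bead arrays, 3 from Lasp1 knockout mice and 3 from wild type mice, all C57Bl/6Ncr and 3 months old. Lasp1 encodes an actin-binding protein, and the study asked how its deletion alters mRNA levels in this tissue. Neither the way the knockout was made nor whether each array held 1 mouse is stated by the labels, and the spread between arrays may be partly technical.

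Cells make fatty acids in the cytosol from citrate. ATP citrate lyase (Acly) splits citrate into acetyl-CoA, acetyl-CoA carboxylase (Acaca) turns that into malonyl-CoA, and fatty acid synthase (Fasn) builds palmitate with NADPH, part of which comes from malic enzyme (Me1). Elovl6 lengthens palmitate to stearate, and the stearoyl-CoA desaturases Scd1 and Scd2 put a double bond into it to give oleate. Fads1 and Fads2 desaturate polyunsaturated fatty acids. The transcription factor SREBP1, encoded by Srebf1, induces most of these genes, typically after feeding and under insulin.

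SREBP1 binds sterol regulatory elements and E-boxes near gene starts, commonly beside the sites of NF-Y (CCAAT boxes) and Sp1 (GC boxes). Promoter windows from RefSeq (GRCm38.p6), of 250 bases before each listed start, were held for 7 of the 10 genes, in 10 windows: Elovl6, Me1, Srebf1, Acaca, Acly, Fasn and Fads2. Of the genes held, Elovl6 and Me1 had the largest differences between the genotypes and are shown with Fasn, the central enzyme of the pathway. Capitals mark CCAAT and GGGCGG on either strand, and the sequences run 5′ to 3′ on the gene's strand.
Elovl6, chr3:129532136-129532385, plus strand: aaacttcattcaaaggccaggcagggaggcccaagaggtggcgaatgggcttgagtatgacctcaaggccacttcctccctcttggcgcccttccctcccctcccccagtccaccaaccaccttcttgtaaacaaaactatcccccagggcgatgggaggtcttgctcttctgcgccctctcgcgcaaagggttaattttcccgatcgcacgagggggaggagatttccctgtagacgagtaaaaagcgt
Me1, chr9:86695915-86696164, minus strand: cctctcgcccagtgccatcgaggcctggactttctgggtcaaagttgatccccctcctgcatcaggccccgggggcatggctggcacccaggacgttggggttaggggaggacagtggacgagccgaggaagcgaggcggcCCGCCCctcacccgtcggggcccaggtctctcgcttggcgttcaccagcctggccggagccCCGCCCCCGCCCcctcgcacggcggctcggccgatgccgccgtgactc
Fasn, chr11:120824548-120824797, minus strand: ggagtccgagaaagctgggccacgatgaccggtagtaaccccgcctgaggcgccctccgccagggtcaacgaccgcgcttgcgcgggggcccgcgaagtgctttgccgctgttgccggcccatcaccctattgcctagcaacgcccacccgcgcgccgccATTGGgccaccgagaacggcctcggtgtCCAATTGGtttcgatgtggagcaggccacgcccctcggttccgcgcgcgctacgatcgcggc
The Fasn window held 3 CCAAT boxes, the pair at -62 and -59 on opposite strands sharing bases, and the Me1 window held 3 GC boxes, at -109, -48 and -42 from the start. The Elovl6 window held neither motif. A CCAAT box was in 4 of the 10 windows (of Me1, Srebf1 and Fasn) and in 33.8% of all 32851 windows of that length, and a GC box was in 5 of the 10 (of Me1, Srebf1, Acly and Fads2) and in 32.7% of all windows. The sterol element TCACNCCAC, on either strand, was in 0 of the 10 windows and in 1.05% of all windows, and the E-box CACGTG was in 0 of 10 and in 6.02%. These matches describe the letters of the windows and no more.

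Lasp1 itself, the check of the labels, was lower by its brightest probe on every knockout array than on any wild type array. That probe read 88521, 111002 and 89823 on knockout replicates 1 to 3, against 270957, 275068 and 177315 on wild type replicates 1 to 3. Its log2 difference was -1.30 (SE 0.21; limma adjusted p = 0.994), so Lasp1 did not pass the threshold used below. A dim probe of Lasp1, above background on wild type replicate 1 alone, overlapped (877 to 1156 on knockout and 970 to 1483 on wild type arrays). Of the genes described here, Srebf1, Acaca, Acly and Fasn lie on chromosome 11 with Lasp1, the nearest being Acly, with 118 protein-coding genes between them in GRCm38.p6. Intensities were scaled by the authors to a median of 1000 per array without subtracting background. Background was read from 26 probes of Y-linked genes, since Xist (55746 to 88070) was bright on all 6 arrays: the brightest Y-linked probe read 1061 to 1212 on the 6 arrays. Wild type replicate 3 carried pancreatic acinar transcripts (the elastase Cela2a read 647587 there and at most 58913 elsewhere), and the median of all kept probes lay 0.27 log2 below their mean over the arrays there. Knockout replicate 1 and wild type replicate 2 carried transcripts of squamous epithelium (the cornified envelope protein Lor read 399114 and 274920, and at most 10048 elsewhere). Many differences that move by over 1.5 times without one of these arrays are given without it as well, though not every such value is listed. On the deposited scale the median log2 difference of the 22640 kept probes was 0.10, and after quantile normalization it was 0.0036. Among the brighter probes left by a filter at the 75th percentile it was 0.17 on the deposited scale. The differences below are thus to be read against a general shift that varied with brightness, and 0.10 is not exact for each gene.

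**Figure D1:**
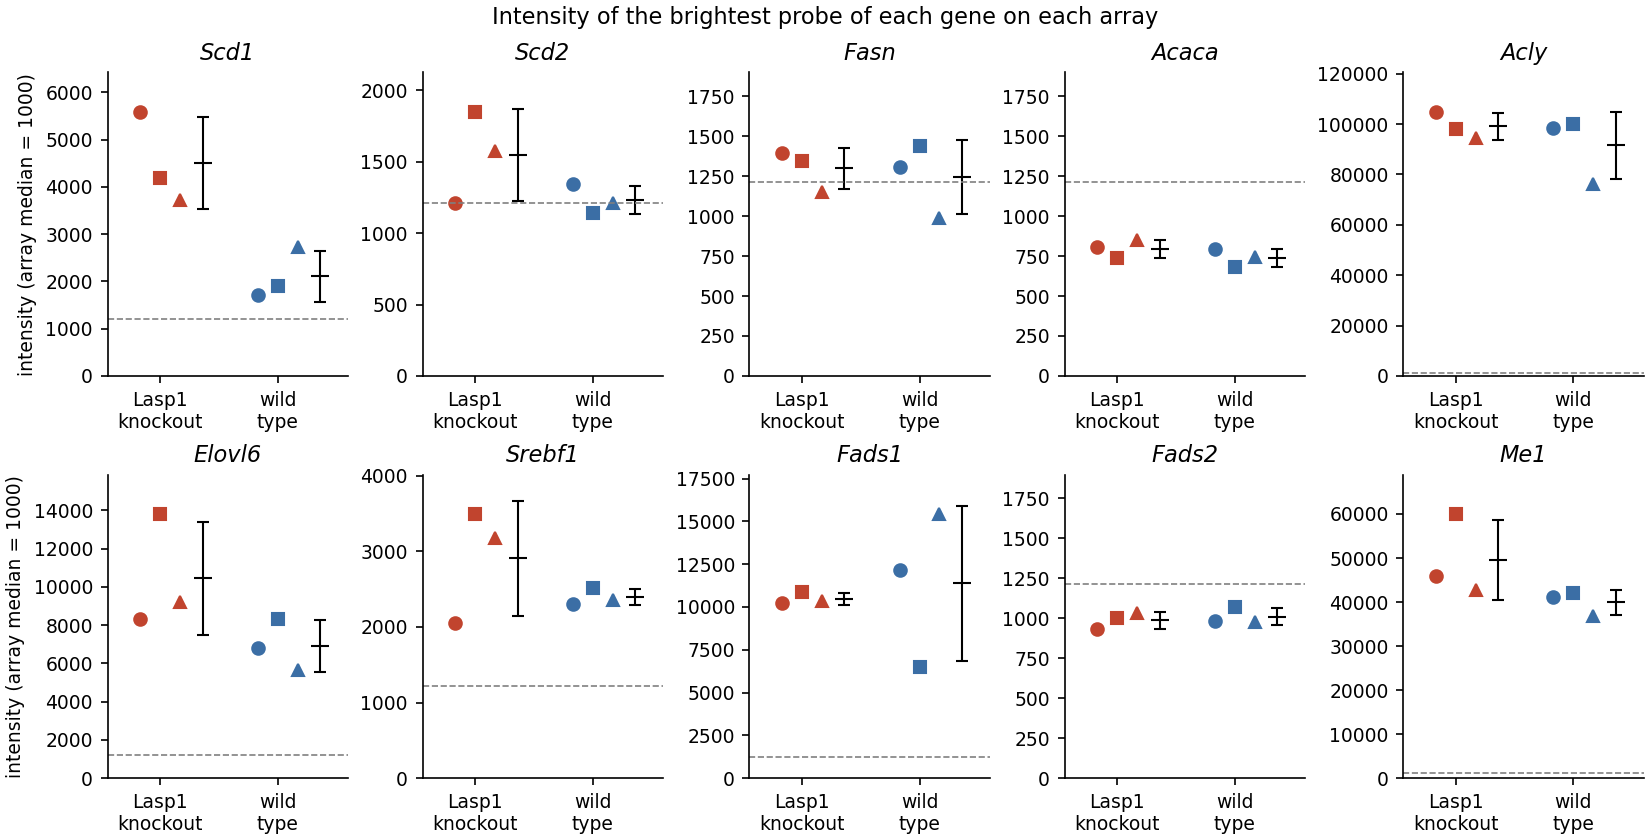
Intensity (linear, each array scaled to a median of 1000) of the brightest probe of each of the 10 genes, with knockout arrays in red at the left and wild type arrays in blue at the right of each panel; circles, squares and triangles are replicates 1, 2 and 3, black bars the mean and SD (n = 3 each), and the dashed line the highest Y-linked probe (1212). Scd1 and Me1 show groups that do not overlap, while Acaca and Fads2 stay under the dashed line on every array.

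Scd1, the desaturase that makes oleate, read 5589.6, 4198 and 3727 on knockout replicates 1 to 3, against 1708, 1902 and 2728 on wild type replicates 1 to 3. Every knockout array lay above every wild type array, and the lowest knockout value was 1.37 times the highest wild type value. The means were 4505 ± 969 in knockout and 2113 ± 542 in wild type mucosa (SD, n = 3 each). The difference of the mean log2 values was 1.10 (SE 0.23), 2.15-fold. All 6 values were above background, and because background was not subtracted this fold is smaller than that of the signal. With each array's brightest Y-linked probe taken off, Scd1 averaged 3367 ± 1028 in knockout and 950.3 ± 492 in wild type mucosa, a ratio of 3.54. Taking a similar value off both groups raises their ratio by construction, and with each array's lowest probe value taken off instead the log2 difference was 1.34. In RNA of whole mucosa, a change in the number of cells that express a gene and a change in RNA per cell cannot be told apart.

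The size of the Scd1 difference varied with the arrays. Its groups do not overlap, so leaving out an array could not turn its direction. It ranged from 0.93 without knockout replicate 1 to 1.30 without wild type replicate 3, and was 0.93 after quantile normalization. Without both arrays with squamous transcripts it was 0.87, with knockout arrays at 4198 and 3727 and wild type arrays at 1708 and 2728. The sample titles carry a number from 1 to 6 whose meaning the labels do not give, and arrays numbered 1 to 3 differ from those numbered 4 to 6 in other genes. Acot1, for example, read 50752, 45752 and 33706 on arrays 1 to 3 and 3588, 2573 and 3192 on arrays 4 to 6. The Scd1 difference was 1.63 within the arrays numbered 1 to 3 (1 knockout and 2 wild type arrays) and 0.54 within those numbered 4 to 6 (2 knockout arrays and wild type replicate 3). For Fads1 (0.20 and -0.54) and Acaca, at background (0.13 and 0.09), the smaller value was likewise in the second group. For the other genes of the set it was in the first group of arrays. Elovl6 differed by 0.14 and 1.003, Me1 by 0.14 and 0.46, Scd2 by -0.03 and 0.49 and Srebf1 by -0.23 and 0.50. Fasn differed by 0.03 and 0.34, Acly by 0.08 and 0.33 and Fads2, at background, by -0.14 and 0.06. The medians of the 10 genes were 0.11 and 0.40, where those of all kept probes were 0.04 and 0.29. Each of these values rests on a lone array of 1 genotype and was not tested.

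Scd2, the second desaturase of this family on the array with a signal, was dim. It read 1208, 1849 and 1575 on knockout replicates 1 to 3, against 1341, 1142 and 1213 on wild type replicates 1 to 3, with wild type replicate 2 under that array's background. Knockout replicates 2 and 3 were above all wild type arrays, and knockout replicate 1 lay among them. The log2 difference was 0.31 (SE 0.18, n = 3 each), 0.17 without knockout replicate 2 and 0.47 without knockout replicate 1. The desaturase genes Scd3 and Scd4 were at background on all 6 arrays.

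Elovl6, the elongase that supplies Scd1 with stearate, had the second largest difference of the 10 genes. Its bright probe read 8300.5, 13806 and 9220 on knockout replicates 1 to 3, against 6792, 8329.9 and 5631 on wild type replicates 1 to 3. Knockout replicate 2 stood highest, and the groups overlapped only in that knockout replicate 1 lay just under wild type replicate 2. The log2 difference was 0.58 (SE 0.23), or 1.49-fold, and it was 0.41 after quantile normalization, 0.36 without knockout replicate 2, 0.44 without wild type replicate 3 and 0.87 without both arrays with squamous transcripts. A dim second probe of Elovl6 read 1568, 1692 and 1360 on knockout arrays and 1033, 1374 and 1387 on wild type arrays, a difference of 0.29 (SE 0.16). Both probes were highest on knockout replicate 2.

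Acly, the first enzyme of the pathway, was bright and nearly level. It read 104862, 97955 and 94405 on knockout replicates 1 to 3, against 98449, 100031 and 76320 on wild type replicates 1 to 3. The 2 highest wild type arrays lay within the knockout range, and wild type replicate 3, the array with pancreatic transcripts, was lowest. The log2 difference of 0.12 (SE 0.15) was -0.0038 without that array and -0.02 after quantile normalization. Without knockout replicate 1 it was 0.08, and without wild type replicate 2 it was 0.19.

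Acaca, which makes malonyl-CoA, was under background on all 6 arrays (737 to 848 on knockout arrays and 681 to 792 on wild type arrays), so its single probe gives no fold. Fasn, which builds palmitate, was near background. It read 1396, 1347 and 1154 on knockout replicates 1 to 3, against 1305, 1441 and 988 on wild type replicates 1 to 3, with wild type replicate 3 under background. The groups overlapped, the log2 difference was 0.07 (SE 0.17), and it was -0.08 without wild type replicate 3. Without knockout replicate 1 it was 0.02, and without wild type replicate 2 it was 0.19. A difference in Acaca was not detectable at this signal, and one in Fasn is poorly measured by a probe this close to background.

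Me1, the cytosolic malic enzyme that yields NADPH, was bright, and its groups did not overlap. It read 45811, 59974 and 42835 on knockout replicates 1 to 3, against 41216, 41959 and 36731 on wild type replicates 1 to 3. Knockout replicate 2 stood highest, and knockout replicate 3 exceeded wild type replicate 2 by little. The means were 49540.1 ± 9158 in knockout and 39969 ± 2828 in wild type mucosa (SD, n = 3 each), and the log2 difference was 0.30 (SE 0.16), 1.23-fold. Without knockout replicate 2 the difference was 0.15, and after quantile normalization it was 0.13.

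Srebf1, which encodes the factor that drives these genes, read 2048, 3490.4 and 3176 on knockout replicates 1 to 3, against 2302, 2512 and 2359 on wild type replicates 1 to 3. Knockout replicates 2 and 3 were above all wild type arrays, and knockout replicate 1 was the lowest of the 6. The wild type arrays lay within 1.09-fold of each other and the knockout arrays within 1.70-fold. The log2 difference was 0.24 (SE 0.21), with 0.48 without knockout replicate 1, 0.09 without knockout replicate 2 and 0.51 without both arrays with squamous transcripts. The second Srebf1 probe was under background on every array. The probes cannot tell the messages of the different Srebf1 starts apart here, since their positions are not given in the sources used.

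Fads1, a desaturase of polyunsaturated fatty acids, varied most among wild type arrays. It read 10217, 10846 and 10321 on knockout replicates 1 to 3, against 12180.5, 6511 and 15425 on wild type replicates 1 to 3. The knockout arrays lay within 1.06-fold of each other and inside the wild type range, which spanned 2.37-fold. The log2 difference of -0.03 (SE 0.30) turned with the array left out: leaving out wild type replicate 2 gave -0.39, leaving out replicate 3 gave 0.23 and leaving out replicate 1 gave 0.06. Both probes of Fads2, which acts with Fads1, were under background on all 6 arrays (823 to 1033 on knockout arrays and 856 to 1071 on wild type arrays), as was the second Fads1 probe.

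**Figure D2:**
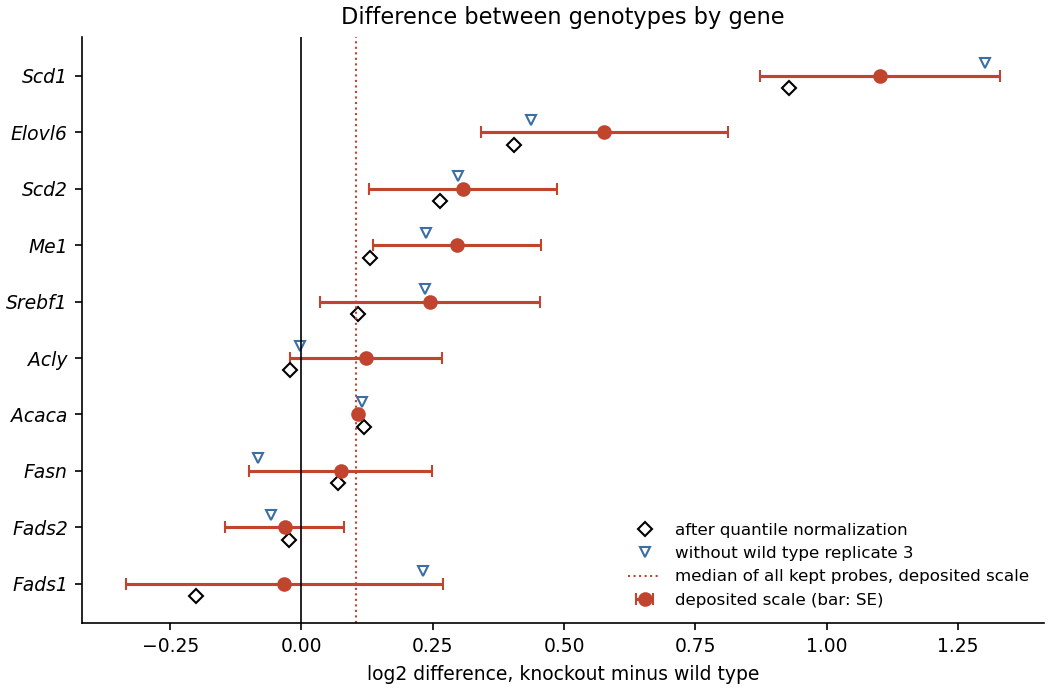
Log2 difference, knockout minus wild type, of the brightest probe of each gene: red points with SE bars are the deposited scale (n = 3 each; Acaca was below the filter and has no SE), open diamonds quantile normalized values, and open triangles the values without wild type replicate 3. Scd1 stands at 1.10 and Elovl6 at 0.58, and the others lie between -0.03 and 0.31, around the dotted median of all kept probes (0.10).

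Over all 10 genes, 8 had a positive log2 difference and 2 (Fads1 and Fads2) a negative one, with a median of 0.18, where 76.9% of all kept probes were positive and their median was 0.10. After quantile normalization 7 of 10 were positive with a median of 0.11, where 51.2% of kept probes were positive. The groups did not overlap, with the knockout above, for 2 of the 10 genes (Scd1 and Me1), and this held for 6.17% of all kept probes. They did not overlap with the knockout below for 0 of the 10 genes, and this held for 1.02% of all kept probes. Of the 14 probes 10, from 9 genes, passed the filter on dim probes. None of the 10 had an adjusted p under 0.05 by limma over all 22640 kept probes, where 0.00883% did, and 2 of the 10 had an unadjusted p under 0.05, where 1.73% did. The genotype contrast chose these genes, so nothing is read from these counts. Scd1 ranked 24 from the top of the kept probes by its log2 difference.

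The 10 genes did not move as a block from array to array. Knockout replicate 2 was above the 6-array mean for 9 of 10 genes, with a median deviation of 0.26 log2, where all kept probes had a median of 0.05 on that array. Knockout replicates 1 and 3 were above it for 5 and 6 genes, with medians of 0.02 and 0.10, where all kept probes had 0.09 and -0.0022. Wild type replicates 1, 2 and 3 were above it for 4, 3 and 1 genes, with medians of -0.02, -0.06 and -0.16. All kept probes had 0.12, -0.01 and -0.27 on those arrays. After quantile normalization the medians of the 10 genes were -0.09, 0.22 and 0.09 on knockout replicates 1 to 3. On wild type replicates 1 to 3 they were -0.07, -0.06 and -0.03. The highest array differed by gene. Scd1 was highest on knockout replicate 1, where Srebf1 had its lowest value and Scd2 and Elovl6 had their lowest knockout values. Elovl6, Srebf1, Scd2 and Me1 were each highest on knockout replicate 2.

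With the mean of its genotype taken off each array, Scd1 had a Pearson r over the 6 arrays of -0.54 with Elovl6, -0.58 with Srebf1, -0.57 with Scd2 and -0.30 with Me1. Elovl6 had an r of 0.90 with Me1 and 0.68 with Srebf1, and Srebf1 of 0.85 with Scd2. Acly and Fasn had an r of 0.95 with each other, both being lowest on wild type replicate 3. These values rest on 6 arrays that share the differences in tissue content given above, and are descriptions.

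**Figure D3:**
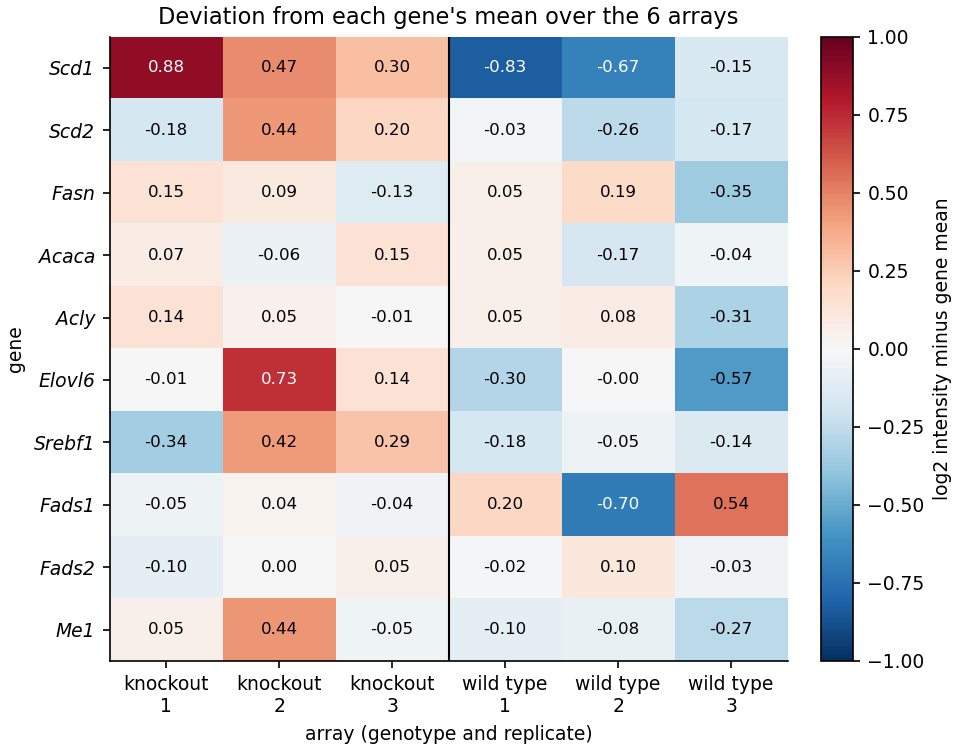
Log2 intensity of each gene's brightest probe minus that gene's mean over the 6 arrays, with knockout arrays in the left 3 columns and wild type arrays in the right 3; red is above and blue below the mean. Scd1 is positive on all knockout arrays and highest on knockout replicate 1, while Elovl6, Srebf1, Scd2 and Me1 are highest on knockout replicate 2 and Fads1 varies most among the wild type arrays.

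The genes whose log2 intensity was most like that of Scd1 over the 6 arrays, of 11867 named genes kept, were Neurod1 (r = 0.98), Fam32a (0.97), Eef1a2 (0.96), Bbs5 (0.96) and Sult4a1 (0.95). Scd1 was chosen for its split by genotype, so this ranking favours genes with the same split and is a description. Neurod1 was close to background, at 1016 to 1066 on knockout arrays and 926 to 991 on wild type arrays. Both Neurod1 and Eef1a2 (965 to 1254) were above background on knockout replicate 1 alone. Sult4a1 was under background on every wild type array (895 to 997). Elovl6 and Me1, the nearest of the 10 genes, ranked 1166 and 982 on this scale with r of 0.48 and 0.52. With genotype means taken off, the most alike were Cyfip2 (r = 0.997), Zg16 (0.99), Fxyd1 (0.99), Tmem18 (0.99) and Evc (0.99). These were picked as the highest of 11867 values over 6 arrays, so a high r and a shared order follow from the choice. Fxyd1 (1030 to 1120) was above background on knockout replicate 1 alone, and Tmem18 (1045 to 1219) was close to background. Zg16, a lectin of secretory granules that is also abundant in pancreas, read 38479, 17105 and 9651 on knockout arrays, against 86169, 124704 and 560890 on wild type arrays. Scd1 and Zg16 thus shared their order within each genotype, highest on knockout replicate 1 and on wild type replicate 3, while the genotypes stood the opposite way round.

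Neighbouring lipid genes were described by 4 lists, each gene by its brightest probe. By limma over all kept probes, none of their kept genes passed the threshold in either direction, with an adjusted p of 0.994 for the lowest in each list. Of the factors that regulate SREBP and LXR activity, 14 of 17 measured genes had a positive difference, with a median of 0.17 (12 genes and 0.08 after quantile normalization, and 15 genes and 0.04 without wild type replicate 3), and 0 of 15 kept genes had an unadjusted p under 0.05. Pparg, the lipid-storage receptor, had a log2 difference of 0.49 (SE 0.26), Insig2, which holds SREBP in the endoplasmic reticulum, of 0.43 (SE 0.25), the ChREBP partner Mlx of 0.33 (SE 0.17) and Mid1ip1, a protein that promotes polymerisation of acetyl-CoA carboxylase, of 0.25 (SE 0.15). Without wild type replicate 3 these were 0.28 for Pparg, 0.20 for Insig2, 0.19 for Mlx and 0.13 for Mid1ip1. Pparg shared the order of Srebf1 among knockout arrays, reading 33303, 57981 and 45657 on them, against 34437.5, 39162 and 23825 on wild type arrays. Knockout replicate 1 lay below 2 of the 3 wild type arrays, and the Pparg difference was 0.29 without knockout replicate 2 and 0.85 without both arrays with squamous transcripts.

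Genes that supply citrate, acetyl-CoA and NADPH, with the AMP-activated kinase subunits, gave 12 of 14 measured genes positive and a median of 0.13, but 7 genes and -0.0071 after quantile normalization, and 3 genes and -0.08 without wild type replicate 3. None of the 12 kept had an unadjusted p under 0.05. Mdh1, the cytosolic malate dehydrogenase, had a difference of 0.68 (SE 0.30), reading 13719, 17819 and 17924 on knockout arrays and 13948, 12162 and 6333 on wild type arrays. The low value of wild type replicate 3 carried much of this, and without it the difference was 0.33. The citrate carrier Slc25a1 differed by 0.40 (0.11 without wild type replicate 3), Idh1 by 0.24 (-0.03) and the acetyl-CoA synthetase Acss2 by 0.20 (0.0011).

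Among the other enzymes of elongation and desaturation, 19 of 21 measured genes were positive, with a median of 0.18 (16 genes and 0.06 after quantile normalization, and 15 genes and 0.06 without wild type replicate 3), and 2 of 18 kept genes, Elovl5 and Elovl7, had an unadjusted p under 0.05. Elovl5, which lengthens polyunsaturated fatty acids made with Fads1 and Fads2, read 12942, 12227 and 13467 on knockout arrays, against 8669, 9026 and 10417 on wild type arrays. Its groups did not overlap, and its log2 difference was 0.46 (SE 0.12; limma adjusted p = 0.994), 0.54 without wild type replicate 3 and 0.28 after quantile normalization. Elovl7, an elongase of saturated very long chains, read 1968, 2558 and 2342 on knockout arrays, against 1794, 1670.1 and 1734 on wild type arrays, a difference of 0.39 (SE 0.14; limma adjusted p = 0.994). Groups did not overlap either for Tecr (0.34, SE 0.16), the reductase that completes each elongation round, and Hacd1 (0.27, SE 0.15), a dehydratase of the same cycle. Without wild type replicate 3 Tecr differed by 0.21 and Hacd1 by 0.14, and after quantile normalization by 0.16 and 0.09. In all, 6 of the 21 genes, of which 18 were kept, had groups that did not overlap with the knockout above, beside the 6.17% of all kept probes given above. Of these 6, 2 (Elovl2 and Hacd2) were above background on 1 array alone. The same count was 1 of 17 for the SREBP and LXR regulators. In that list 1 gene, under background on all 6 arrays and not kept, had the knockout below, beside 1.02% of all kept probes. The count with the knockout above was 0 of 14 for the genes of citrate, acetyl-CoA and NADPH supply and 3 of 30 for the glycerolipid genes below. These counts were not tested. Elovl4, an elongase of very long chains in epidermis, followed the squamous transcripts, at 18814 on knockout replicate 1 and 6462 on wild type replicate 2, and at most 1129.7 elsewhere.

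Of the genes of glycerolipid synthesis and storage, 24 of 30 measured were positive, with a median of 0.13 (18 genes and 0.04 after quantile normalization, and 10 genes and -0.04 without wild type replicate 3). One of 27 kept genes had an unadjusted p under 0.05, the glycerol-phosphate acyltransferase Gpat3, with a difference of 0.43 (SE 0.15; limma adjusted p = 0.994). It read 2868, 3199.8 and 2966 on knockout arrays, against 2660.2, 2184 and 1912 on wild type arrays. Plin4, a lipid droplet coat protein, differed by 0.43 (SE 0.23), and the acyltransferases Agpat1 and Mogat2 by 0.33 (SE 0.16) and 0.33 (SE 0.14). Plin4 differed by 0.21 without knockout replicate 1 and by 0.13 without both arrays with squamous transcripts, and Agpat1 by 0.18 without wild type replicate 3.

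**Figure D4:**
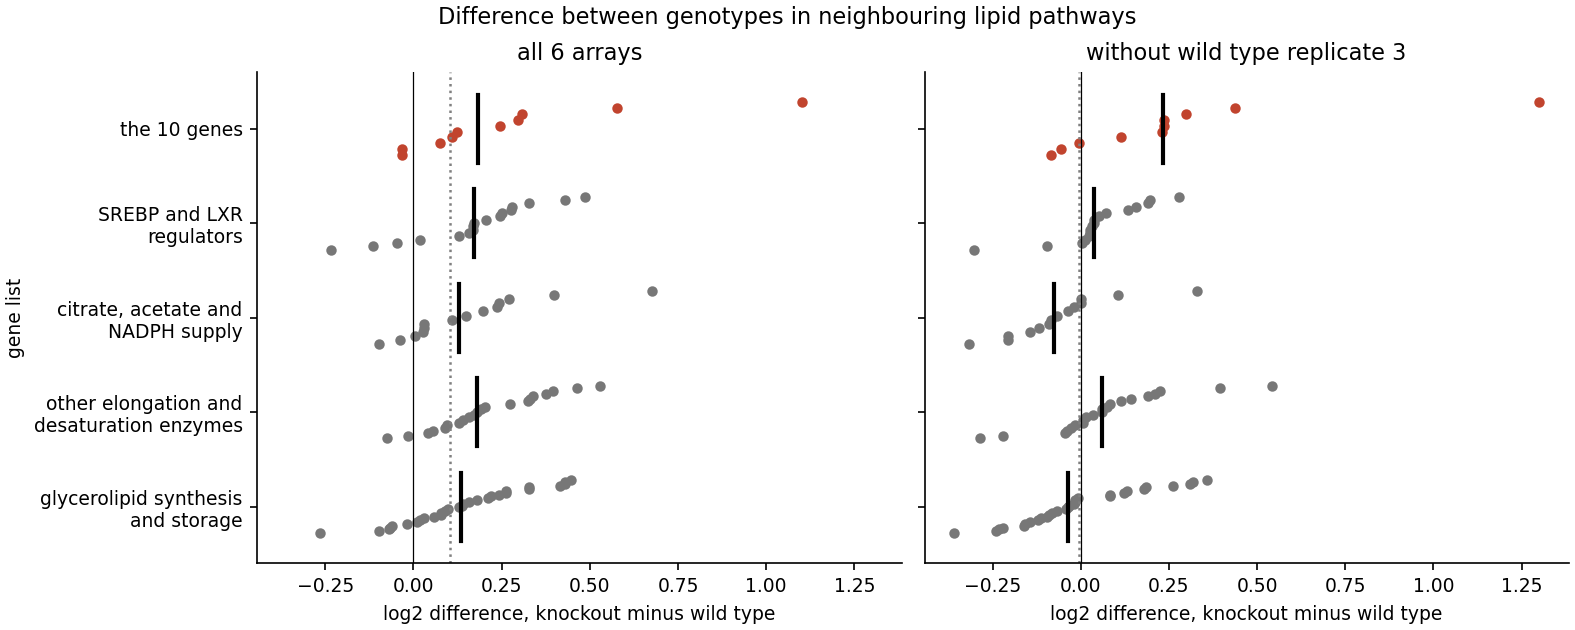
Log2 difference, knockout minus wild type, of each measured gene (1 point, brightest probe) in the 10 genes and in the 4 neighbouring lists, over all 6 arrays at the left and without wild type replicate 3 at the right; black bars are list medians and the dotted line the median of all kept probes (0.10 and -0.0039). Without that array the medians of the neighbouring lists lie between -0.08 and 0.06, and Scd1 remains the rightmost point at 1.30.

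Markers of cells that make or store much fat were read beside Scd1. Of 9 measured adipocyte genes, 5 were above background on no array, among them Fabp4 and Plin1, and their summed intensity was 12985 to 14949.6 on knockout arrays and 11314 to 14813 on wild type arrays. Adipoq, which encodes the fat cell hormone adiponectin, read 1518 on knockout replicate 1, the array of highest Scd1. It read 740.2 to 1005 on the other 5, where it was under background. The list as a whole did not follow Adipoq. Its sum was 13980 on knockout replicate 1, below knockout replicate 2 (14949.6) and wild type replicate 1 (14813). Cidec, the brightest of the list (5934 to 7959.7 on knockout arrays and 4378 to 7787.5 on wild type arrays), was above background on every array. Of 7 genes of sebaceous glands, whose cells are rich in Scd1, 4 were above background on no array, and Fa2h was bright on all. Their sums were 145316 to 169951 on knockout arrays and 122008 to 148836 on wild type arrays, and nearly all of it was Fa2h.

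The smooth muscle sum was highest on knockout replicate 1, at 266505 over 8 genes. It was 56066 and 71966 on the other knockout arrays and 43529 to 117401 on wild type arrays. The squamous list summed to 952268 on knockout replicate 1 and 564721 on wild type replicate 2, against at most 31429.7 on any other array. Pancreatic acinar genes summed to 28414 to 117521 on knockout arrays and 95630.5 to 4476916 on wild type arrays. The part of these tissues in the Scd1 values was not tested, and the Scd1 difference on leaving out knockout replicate 1, wild type replicate 3 or both squamous arrays is given above. Markers that define the labelled tissue were present: all 7 measured parietal cell genes, 5 of 6 chief cell genes and all 5 measured surface mucous cell genes were above background on every array. The acid pump genes Atp4a and Atp4b differed by 0.06 (SE 0.14) and 0.01 (SE 0.12) between the genotypes.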

How the data were processed

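Biotin-labelled cRNA, prepared with the Ambion MessageAmp kit, was read on Illumina arrays, per the labels' protocols. The deposited table holds 1 linear intensity for each probe on each array. The values show that the authors scaled every array to a median of 1000 and left background in. The scanner, its software and filters were not stated in the labels. Samples were grouped by genotype from the source labels. The platform annotation gave 1 symbol to 34885 of 45281 probes, several to 18 and none to 10378. Through Entrez identifiers 34807 were matched to the GRCm38.p6 gene table. Intensities, with a floor of 16 (the lowest was 541.9), were put on the log2 scale. A probe was kept if its mean log2 value exceeded that of the median probe, which left 22640 probes and 11868 named genes. The genotypes were compared with lmFit and eBayes (limma 3.58.1, R 4.3.3) in two-sided tests adjusted by Benjamini and Hochberg's method over the kept probes, with 0.05 as the threshold. SEs are those of that fit. Its calls, and not its SEs, were tested on simulated data, which had independent noise and no differences in tissue content between arrays. A gene is given by its brightest probe. Each log2 difference is knockout minus wild type. Background on an array is its brightest probe of a Y-linked gene. The number of arrays limits the precision.

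The members and lists were chosen with earlier results of these data known. The genes named are the 10 members, Lasp1, of each lipid list the 4 kept genes of smallest unadjusted p, of each marker list the 2 brightest or those beside a result, and the 5 most like Scd1 by each of 2 measures. Scd3, Scd4, Elovl2, Elovl4, Hacd2 and Acot1 were named after their values were seen. Alternatives were other normalizations, background steps, filters and variance models, weights for the arrays, a block for the replicate number, the title number, the mean of a gene's probes, and leaving out arrays. Promoter sequences are RefSeq's (GRCm38.p6). Figures used matplotlib 3.10.9 and Python 3.11.15.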

Additional observations from a re-analysis of the deposited data

How the results depend on the processing

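The Scd1 difference, which chose the genes as higher in the knockout, ranged from 0.87 to 1.34 over 19 alternatives, 5 of which (filters, variance model, replicate block and mean of probes) leave it as it is by construction. Apart from Acaca, at background, the differences of other genes that kept their sign were those of Elovl6 (0.36 to 0.87), Srebf1 (0.09 to 0.51) and Me1 (0.11 to 0.39) under 19 and Scd2 (0.17 to 0.53) under 18. For Scd1 and Me1, whose groups do not overlap, leaving out arrays could not turn the sign. The sign changed for Acly under 5 alternatives, for Fads1 and Fads2 under 3 each and for Fasn under 2. The median of the 10 genes was 0.18, against 0.29 with the lowest probe value of each array subtracted, 0.31 with array weights, and 0.14 to 0.23 on leaving out 1 array. With a filter at the 75th percentile 5 genes were higher, against 8, because fewer genes were kept. Probes past the threshold numbered 2, against 0 with that filter, 0 without both squamous arrays, 1816 with array weights (where wild type replicate 2 had a weight of 38.8 and the others at most 1.6), and 0 to 3 on leaving out 1 array; the cause was not tested. With the replicate number as a block 0 probes passed; with balanced groups a block cannot alter the fitted difference, 1.10 for Scd1. Same-numbered arrays deviated from their group means with correlations of 0.04, -0.30 and 0.53, and knockout replicate 1 with wild type replicate 2 had 0.55. With 3 arrays per genotype that differ in tissue content, these values cannot tell whether the numbers pair the samples. The mean of a gene's probes gives no count over all probes. Signal over background limits Acaca, Fads2, Fasn and Scd2.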
